A study of Homo sapiens with 39 samples.

Results

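The response of C4-2B cells to olaparib (1 µM) after 5 days was compared, gene by gene, with the response after 1 day. For each gene, the log2 fold change of olaparib over DMSO at day 1 was subtracted from that at day 5, and the difference is called the interaction. A positive interaction means that the gene was higher, relative to DMSO, at day 5 than at day 1. The contrast used 12 of the 39 libraries in the series, chosen by their labels, and 18502 of the 63187 genes in the table passed the filter on low counts. A gene passed a test at an adjusted p under 0.05 in edgeR's quasi-likelihood test, with Benjamini-Hochberg adjustment over all genes tested. A gene was early only if it passed at day 1 and in the interaction but not at day 5, and late only if it passed at day 5 and in the interaction but not at day 1. It was sustained if it passed at both days in the same direction, and reversed if it passed at both days in opposite directions. Genes that passed at 1 of the days without passing in the interaction were counted apart as undecided. The classes were cut from these 3 contrasts, so class sizes and the values that define them are given as a description.

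C4-2B is an established castration-resistant prostate cancer cell line of the LNCaP lineage, and olaparib is a PARP inhibitor (PARPi). The cells grew in RPMI medium with fetal bovine serum, were plated, and received either DMSO or olaparib on the next day, for 1 or 5 days, which gives 4 groups of 3 libraries each. The other 6 libraries of the time course (olaparib 5 µM at both days) entered the same fit and add to its estimate of the spread, and a separate panel of 21 libraries held DMSO and olaparib (1 µM) groups of its own after 5 days. The labels do not say whether replicates came from separate cultures, so p-values measure only the spread between these libraries of a single cell line, which may be technical.

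The 12 libraries held between 35753966 and 44893664 counts (median 38380083), and between 8.40% and 10.7% of them fell on a library's 10 most counted genes. Each library correlated better with the other libraries of its own group than with any library of another group. All 12 luminal prostate markers, KLK3 among them, were at or above 1 on the CPM scale, which is counts scaled to a common library size,. Their summed level lay between 4355 and 4473 CPM in DMSO and 4287 and 4325 CPM with olaparib at day 1, and between 4961 and 5004 CPM in DMSO and 5675 and 5706 CPM with olaparib at day 5. In each list of basal, neuroendocrine, fibroblast, endothelial and leukocyte markers, 1 gene reached a mean of 1 CPM. NEUROD1 and LUM were at 0 in all 12 libraries. The leukocyte list was mostly CD68, which encodes a lysosomal membrane protein, and its sum was between 5.31 and 7.14 CPM in the other 3 groups and between 16.6 and 18.2 CPM with olaparib at day 5.

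PARP1 and PARP2 sense breaks in DNA and mark nearby proteins with ADP-ribose chains, and PARPi block the enzymes and hold them on DNA, where they hinder replication. The damage that follows is signaled by the kinases ATM and ATR and stabilizes p53, which turns on the cell cycle inhibitor p21 (CDKN1A), its own inhibitor MDM2 and cell death genes, and p21 in turn allows the DREAM and RB complexes to silence genes of S phase and mitosis. Prostate luminal cells depend on androgen, which raises KLK3 (PSA) among other genes, and ATF4 is the transcription factor through which cells raise amino acid synthesis and transport under stress.

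Promoters of 5 named genes whose late falls are described here are printed as examples that hold a motif. They hold 3 of the 5 kinds of motif searched. Other named genes with late falls, ASNS, SLC1A4, NIBAN1, FANCD2, EME1 and NQO1 among them, held none of the motifs. Each printed promoter is the 250 bases before the RefSeq start on GRCh38.p14, 5′ to 3′ on the gene's own strand. Capitals mark CCAAT (the CCAAT box, ATTGG on the other strand), TTTGAA (the cell cycle homology region) and TGATGNAAT (the ATF4 composite element). CKS1B and CDC45 were late only, MKI67 was sustained and fell further at day 5, BCAT1 was late only, and CHAC1 was reversed. In MKI67, the TTTGAA nearest the start overlaps the ATTGG next to it. CKS1B lies at chr1:154974431-154974680 (plus strand), MKI67 at chr10:128126424-128126673 (minus strand), CDC45 at chr22:19479670-19479919 (plus strand), BCAT1 at chr12:24949102-24949351 (minus strand) and CHAC1 at chr15:40953221-40953470 (plus strand).
CKS1B: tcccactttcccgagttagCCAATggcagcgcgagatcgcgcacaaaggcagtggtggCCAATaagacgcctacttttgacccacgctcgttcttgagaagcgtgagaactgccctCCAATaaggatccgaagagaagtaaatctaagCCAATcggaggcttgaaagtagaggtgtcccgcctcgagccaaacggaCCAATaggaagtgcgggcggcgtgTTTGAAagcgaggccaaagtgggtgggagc
MKI67: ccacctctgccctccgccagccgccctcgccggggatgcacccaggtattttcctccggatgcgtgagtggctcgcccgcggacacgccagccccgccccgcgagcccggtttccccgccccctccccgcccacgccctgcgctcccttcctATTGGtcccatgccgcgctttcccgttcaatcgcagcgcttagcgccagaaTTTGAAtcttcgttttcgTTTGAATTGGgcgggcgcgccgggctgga
CDC45: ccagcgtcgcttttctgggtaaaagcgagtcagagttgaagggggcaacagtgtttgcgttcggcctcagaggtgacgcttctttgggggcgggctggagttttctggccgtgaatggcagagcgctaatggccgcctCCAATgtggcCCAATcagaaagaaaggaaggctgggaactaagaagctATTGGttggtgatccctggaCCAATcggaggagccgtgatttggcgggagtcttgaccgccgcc
BCAT1: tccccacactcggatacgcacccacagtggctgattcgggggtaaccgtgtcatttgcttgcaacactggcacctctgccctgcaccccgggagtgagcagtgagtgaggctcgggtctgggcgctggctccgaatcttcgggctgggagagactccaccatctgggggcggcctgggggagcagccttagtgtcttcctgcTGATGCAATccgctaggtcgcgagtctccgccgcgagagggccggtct
CHAC1: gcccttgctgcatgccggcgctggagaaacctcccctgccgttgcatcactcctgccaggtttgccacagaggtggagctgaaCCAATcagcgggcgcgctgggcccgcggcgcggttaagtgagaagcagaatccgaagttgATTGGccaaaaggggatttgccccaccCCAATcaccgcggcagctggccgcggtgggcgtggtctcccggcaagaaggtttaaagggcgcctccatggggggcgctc

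Both strands of such windows were searched in the 12121 of 18502 tested genes with a RefSeq promoter. CCAAT was present in 35.3% of them, TTTGAA in 8.51%, the E2F motif TTTCGCGC or TTTGGCGC in 1.70%, and the ATF4 element in 0.413%. Late-only genes that fell had CCAAT in 40.7%, TTTGAA in 10.5%, the E2F motif in 2.57% and the ATF4 element in 0.784% of 1403 promoters. Late-only genes that rose had them in 34.5%, 6.79%, 1.43% and 0.187% of 1606 promoters, in the same order. In that order, sustained falls had them in 40.1%, 10.1%, 2.31% and 0.22% of 910 promoters. Sustained rises had them in 31.6%, 7.59%, 0.904% and 1.45% of 553 promoters, and early-only falls in 41.3%, 4.19%, 3.59% and 1.2% of 167. For CCAAT, the E2F motif and the ATF4 element, the share in late-only falls was thus not the highest among the classes. Among the lists, 68.9% of 45 G2/M promoters held CCAAT and 53.3% TTTGAA, and 68.8% of 32 S phase promoters held CCAAT and 18.8% the E2F motif. CCAAT was in 83.3% of 18 cholesterol synthesis, 75.8% of 33 ER chaperone and 51.4% of 37 ATF4 and amino acid promoters. The ATF4 element was in 0 of those 37, and BCAT1, which holds it, is not in that list. The full androgen response element, with both of its arms, was in none of the 12121 windows. These matches describe letters only and were not tested.

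The olaparib effect changed between the days for many genes. The interaction passed the test for 5510 genes (29.8% of those tested), 2883 upward (15.6%) and 2627 downward (14.2%). At day 1, 2928 genes passed (15.8%), 1166 higher (6.30%) and 1762 lower (9.52%) with olaparib, and at day 5 8566 passed (46.3%), 4324 higher (23.4%) and 4242 lower (22.9%). Late-only genes were the largest class, with 3895 genes (21.1% of those tested), 2082 up (11.3%) and 1813 down (9.80%). Sustained genes numbered 1847 (9.98%), 728 up (3.93%) and 1119 down (6.05%). Early-only genes numbered 343 (1.85%), 134 up (0.724%) and 209 down (1.13%). Reversed genes numbered 296 (1.60%), of which 161 (0.870%) fell at day 1 and rose at day 5 and 135 (0.730%) did the opposite. A further 442 genes (2.39%) passed at day 1 without passing in the interaction, 169 up (0.913%) and 273 down (1.48%). At day 5 there were 2528 such genes (13.7%), 1353 up (7.31%) and 1175 down (6.35%). The interaction alone passed for 227 genes (1.23%), 120 up (0.649%) and 107 down (0.578%), and 8924 genes (48.2%) passed no test.

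Scaling by total count in place of TMM changed the balance of directions, from 52.3% to 37.4% upward among interaction calls and from 39.8% to 59.9% higher among day 1 calls. Leaving out DMSO day 1 replicate 1 left 1932 day 1 calls, 222 early-only and 189 reversed genes. Without olaparib 1 µM day 1 replicate 1 there were 192 reversed genes, and without olaparib 1 µM day 1 replicate 3 there were 189.

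**Figure D1:**
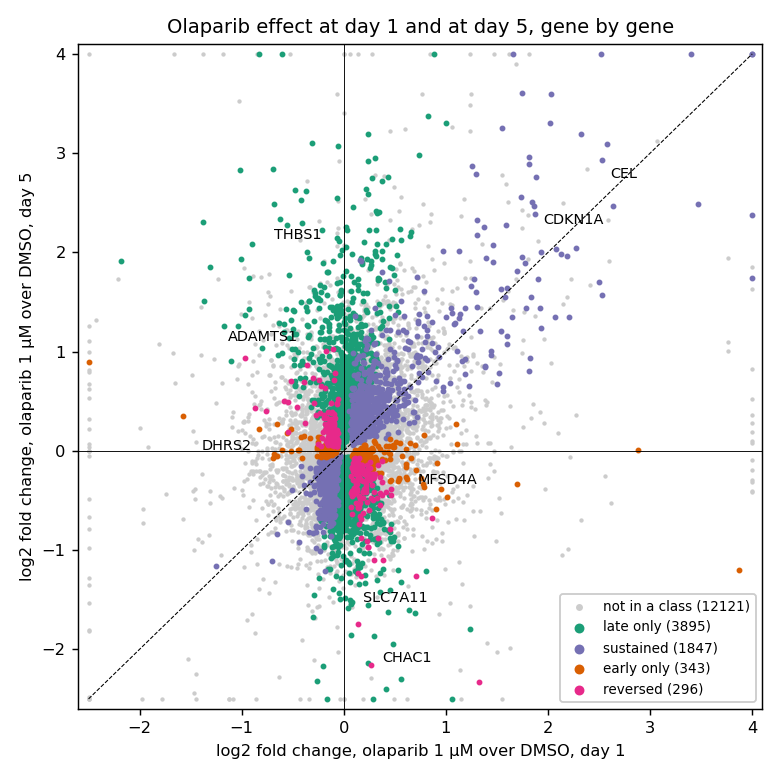
Each point is a gene, with the log2 fold change of olaparib (1 µM) over DMSO at day 1 on the horizontal and at day 5 on the vertical axis, colored by class, and with genes beyond an axis drawn at its edge. The 3895 late-only genes form a vertical band around 0 at day 1, the 1847 sustained genes lie in the upper right and lower left, and the 296 reversed genes lie in the other 2 quadrants.

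Most changes were small on the log2 scale. The median absolute interaction was 0.32 in late-only genes that fell and 0.30 in those that rose, 0.14 in early-only genes that fell and 0.30 in those that rose. It was 0.26 in reversed genes that fell and then rose and 0.49 in those that rose and then fell. If every contrast also had to reach an absolute log2 fold change of 0.5, there were 1041 late-only genes (921 of them late only without that limit), 152 sustained, 42 early-only (37 of them early only without it) and 5 reversed genes. At the threshold itself, CRYZ was just inside with an interaction of -0.17 (adjusted p = 0.0498) and LINC00649 just outside with -0.40 (adjusted p = 0.0501).

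The classes differed in what kind of gene they held. Protein-coding genes made up 97.6% of sustained genes that fell, 92.1% of late-only genes that rose and 90.2% of late-only genes that fell, against 74.6% of all genes tested and 59.7% of those that passed no test. Long noncoding RNAs were 2.06% of sustained genes that fell and 29.8% of those that passed no test. The median level over the 4 group means was 93.3 CPM in sustained genes that fell and 1.95 CPM in genes that passed no test, so that calls and level moved together.

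Genes of the p53 pathway rose by day 1 and stayed up. Of 53 tested p53 targets, 44 were higher and 0 lower with olaparib at day 1, and 47 were higher and 2 lower at day 5. A total of 43 were sustained, 16 of them with a larger and 6 with a smaller fold change at day 5. The median log2 fold change was 0.57 at day 1 and 0.58 at day 5, where the median over all genes tested was 0 and -0.00075. In the interaction, 19 targets passed upward and 8 downward (15 and 12 under total-count scaling), with a median of 0.09. Over all genes, 15.6% passed upward and 14.2% downward, so the 8 downward were near that share.

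CDKN1A (ENSG00000124762, chr6:36676460-36687337, plus strand), which encodes p21, was at 55.8, 54.3 and 53.9 CPM in DMSO and 196, 201 and 201 CPM with olaparib at day 1. By day 5 it was at 40.4, 41.9 and 41.0 CPM in DMSO and 224, 228 and 227 CPM with olaparib. The olaparib libraries lay far above the DMSO libraries at both days, and between the days the DMSO libraries went down and the olaparib libraries up. The log2 fold change was 1.87 ± 0.025 (SE) at day 1 and 2.46 ± 0.025 at day 5, and the interaction was 0.60 ± 0.035 (adjusted p = 4.26e-16). In the panel it was 2.18 ± 0.053 (adjusted p = 7.76e-17).

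MDM2, the ubiquitin ligase that degrades p53, was at 185 to 197 CPM in DMSO and 260 to 273 CPM with olaparib at day 1, and at 183 to 196 CPM and 248, 248 and 248 CPM at day 5. Its log2 fold change was 0.48 ± 0.025 and then 0.37 ± 0.025, with an interaction of -0.11 ± 0.036 (adjusted p = 0.0186). The interaction did not pass without DMSO day 1 replicate 2, olaparib 1 µM day 1 replicate 2, DMSO day 5 replicate 1 or DMSO day 5 replicate 2, with adjusted p up to 0.0734 for MDM2 in these fits. FAS, a death receptor, was at 2.57 to 2.84 CPM in DMSO and 8.54 to 9.52 CPM with olaparib at day 1, and at 1.90 to 2.14 and 7.70 to 7.99 CPM at day 5. It was sustained at 1.75 ± 0.080 and 1.96 ± 0.086, and the interaction of 0.21 ± 0.12 did not pass (adjusted p = 0.273).

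TRIM22, an interferon- and p53-inducible ubiquitin ligase, had the largest interaction among the targets with at least 100 counts in a group. TRIM22 reached 100 counts only with olaparib at day 5, so this rank is a description. It was at 0.256, 0.377 and 0.338 CPM in DMSO and 0.872, 1.04 and 0.973 CPM with olaparib at day 1. After 5 days it was at 0.463, 0.325 and 0.335 CPM in DMSO and 3.78, 3.74 and 3.38 CPM with olaparib. The interaction was 1.70 ± 0.28 (adjusted p = 2.48e-05). PTCHD4 also passed upward, but was at or under 0.0708 CPM in every DMSO library, with 0 in 1 DMSO library at day 5, and no fold change is given for it. DRAM1, a p53-induced regulator of autophagy, was the early-only member. Its levels were 15.6 to 18.2 CPM in DMSO and 24.1 to 26.4 CPM with olaparib at day 1, but 19.8 to 20.8 and 18.1 to 20.9 CPM at day 5. The day 5 groups overlapped, and the interaction was -0.62 ± 0.074 (adjusted p = 1.54e-08).

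Among the other p53 targets, BAX, BBC3 and SESN2 were picked after their values were seen, while PMAIP1 was named by the list rule. BAX, which permeabilizes mitochondria, was at 0.60 ± 0.043 and 0.58 ± 0.044 at the 2 days, and BBC3 (PUMA), which activates it, at 1.19 ± 0.10 and 1.44 ± 0.11. SESN2, a stress gene shared by p53 and ATF4, was sustained with a smaller fold change at day 5, at 0.72 ± 0.049 and then 0.34 ± 0.051, with an interaction of -0.38 ± 0.071 (adjusted p = 6.86e-05). In the panel it had 0.0022 ± 0.055 and did not pass (adjusted p = 0.983). PMAIP1 (NOXA), a death gene of the p53 and BCL2 lists, was a late-only fall, with an interaction of -0.93 ± 0.13 (adjusted p = 9.04e-07).

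The naming rule for sustained rises also picked 2 genes outside the p53 list. CEL, a bile salt-activated lipase, was at 1.14, 1.11 and 0.936 CPM in DMSO and 6.05, 6.17 and 6.10 CPM with olaparib at day 1. The day 5 levels were 0.970, 0.921 and 1.08 CPM in DMSO and 7.0, 7.75 and 8.04 CPM with olaparib. It had the largest sustained rise among genes with at least 100 counts in a group, 2.52 ± 0.11 and 2.93 ± 0.11, and its interaction of 0.41 ± 0.18 did not pass (adjusted p = 0.107). CEL reached 100 counts only with olaparib, so this rank is a description. FAXDC2, a predicted fatty acid hydroxylase, rose by 1.78 ± 0.085 and 1.89 ± 0.070.

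The 1119 sustained genes that fell changed less. IFRD1, a transcriptional co-regulator, was at 78.7 to 85.4 CPM in DMSO and 59.1 to 60.5 CPM with olaparib at day 1, and at 76.7 to 85.6 and 42 to 42.6 CPM at day 5. Its log2 fold change was -0.44 ± 0.035 and then -0.92 ± 0.037. CDCA7, a factor in DNA methylation that is expressed in S phase, had -0.37 ± 0.045 and -0.59 ± 0.046. SPRY4, an inhibitor of receptor tyrosine kinase signaling, had -0.39 ± 0.12 and -0.35 ± 0.11, and the lncRNA SNHG26 -0.51 ± 0.15 and -0.39 ± 0.16. SPRY4 was sustained in 7 and SNHG26 in 5 of the 12 fits that left out 1 library.

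**Figure D2:**
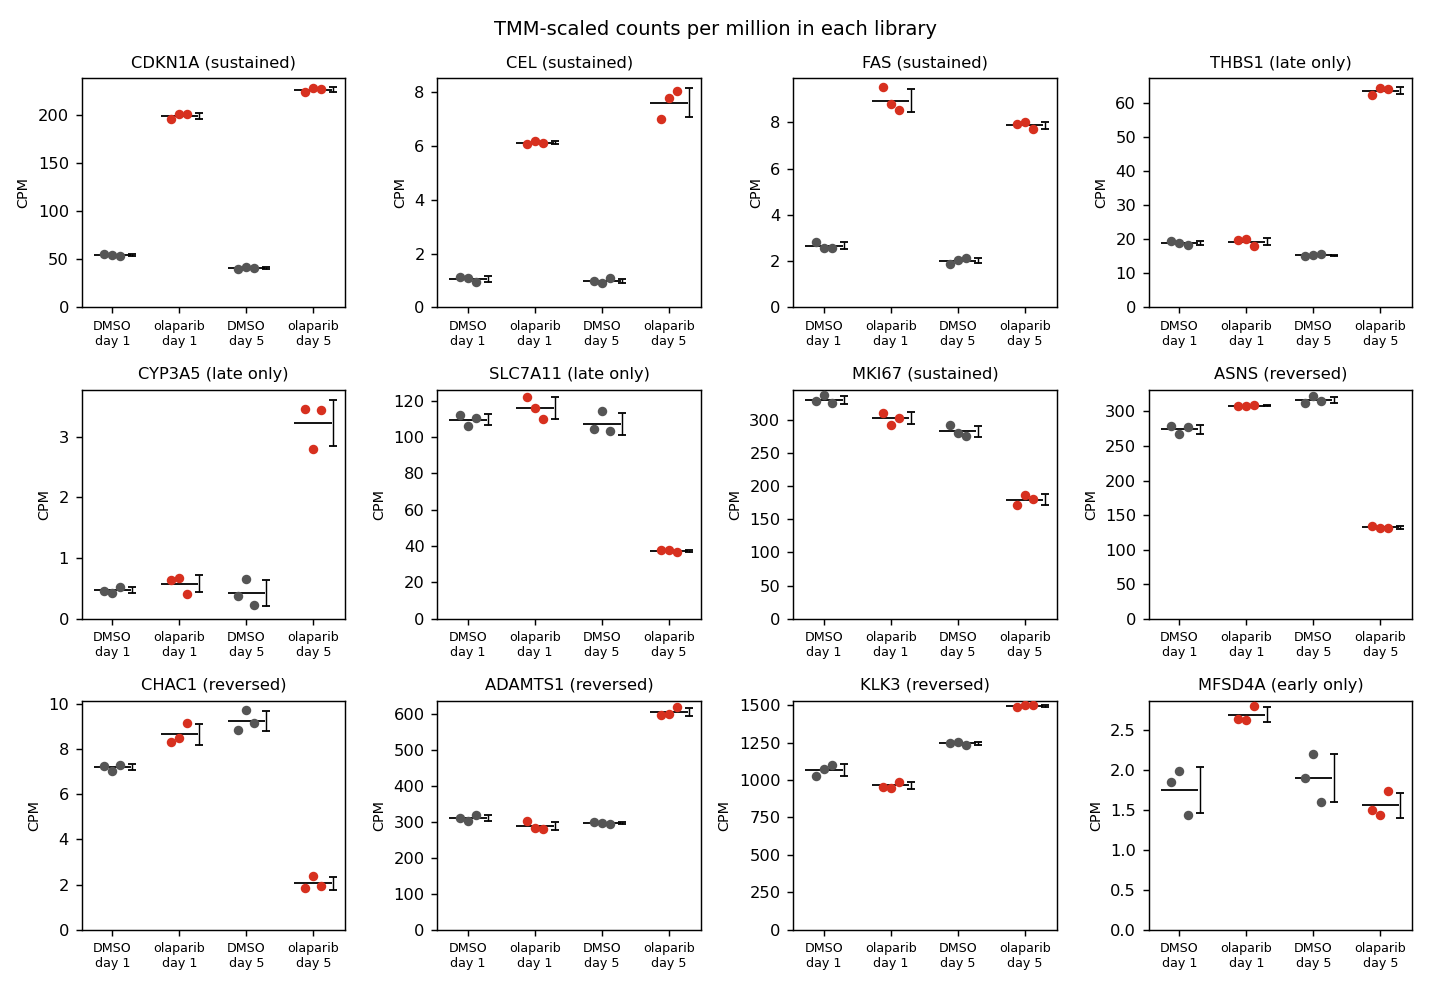
Points are TMM-scaled CPM of single libraries for 12 genes, in DMSO (gray) and olaparib 1 µM (red) at days 1 and 5, with the mean as a line and the SD of 3 libraries as a bar, on axes from 0. CDKN1A, CEL and FAS are high with olaparib at both days, THBS1, CYP3A5 and SLC7A11 part from DMSO only at day 5, and MFSD4A parts only at day 1.

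Cell cycle genes fell mostly by day 5, and some were already lower at day 1. Over all genes, 9.52% were lower at day 1 and 22.9% at day 5. At day 1, 17 of 43 S phase genes were lower and 2 higher with olaparib, and at day 5 all 43 were lower. In the interaction 39 passed downward and 0 upward, at a median of -0.37, and the median log2 fold change went from -0.07 to -0.48. Of the 54 G2/M genes, 21 were lower and 3 higher at day 1, and 52 were lower and 1 higher at day 5. In the interaction 52 passed downward and 1 upward, at a median of -0.53, and the median fold change went from -0.07 to -0.56. By class, 22 S phase and 29 G2/M genes were late only, and 17 and 20 were sustained falls. Under total-count scaling, 15 S phase genes were lower and 4 higher at day 1, and 15 G2/M genes were lower and 5 higher. S phase rises at day 1 numbered 1 without DMSO day 1 replicate 3 or without olaparib 1 µM day 1 replicate 1 or 3. Without DMSO day 1 replicate 1, 14 G2/M genes were lower and 4 higher at day 1. In bulk RNA, fewer cells in cycle and less RNA per cycling cell cannot be told apart.

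CKS1B, a subunit of cyclin-dependent kinases whose promoter holds 5 CCAAT boxes, was at 83.1, 80.3 and 81.8 CPM in DMSO and 81.8, 80.9 and 82.8 CPM with olaparib at day 1. At day 5 it was at 78.9, 75.1 and 77.5 CPM in DMSO and 46.2, 43.7 and 46.3 CPM with olaparib. The groups overlapped at day 1 and were well apart at day 5, and the interaction was -0.77 ± 0.046 (adjusted p = 7.06e-16). HMGB2, a chromatin protein of dividing cells, had an interaction of -0.74 ± 0.033, and NEK2, a centrosomal kinase, one of -0.69 ± 0.047.

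MKI67, which encodes the proliferation marker Ki-67, was at 329, 338 and 326 CPM in DMSO and 311, 293 and 304 CPM with olaparib at day 1. By day 5 it was at 293, 281 and 276 CPM in DMSO and 172, 188 and 180 CPM with olaparib. It fell at both days, by 0.13 ± 0.034 and then by 0.66 ± 0.035 on the log2 scale, and the interaction was -0.53 ± 0.049 (adjusted p = 2.43e-08). The day 1 fall was less firm, since MKI67 was late only under total-count scaling and sustained in 9 of the 12 fits that left out 1 library. CCNB1 (cyclin B1), which drives entry into mitosis, went from -0.10 ± 0.024 to -0.50 ± 0.025.

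UBE2C, the ubiquitin-conjugating enzyme of the anaphase-promoting complex, was reversed. It was at 64.7, 66.7 and 65.5 CPM in DMSO and 72.9, 74.3 and 70.8 CPM with olaparib at day 1, and at 57.7, 58.3 and 58.6 CPM and 39.1, 38.8 and 40.1 CPM at day 5. Olaparib libraries were all above DMSO at day 1 and all below it at day 5, with log2 fold changes of 0.15 ± 0.029 and -0.57 ± 0.031. In S phase genes, CDC45, part of the replicative helicase, was at 61.7, 62.2 and 61.8 CPM in DMSO and 59.9, 58.8 and 57.7 CPM with olaparib at day 1. After 5 days it was at 58.6, 56.6 and 58.5 CPM in DMSO and 36.7, 34.5 and 33.7 CPM with olaparib, and the interaction was -0.65 ± 0.047 (adjusted p = 1.30e-13). PRIM1, the primase catalytic subunit, went from -0.15 ± 0.035 to -0.75 ± 0.039.

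Homologous recombination (HR) and Fanconi genes, whose products repair the breaks that PARPi leave, also fell late. This list shares members with the S phase list, BLM among them, so its counts are not separate from those above. Of 37, 5 were lower and 2 higher at day 1, 29 were lower and 0 higher at day 5, and 25 passed downward and 1 upward in the interaction. The day 1 falls numbered 1 without DMSO day 1 replicate 1, 3 without olaparib 1 µM day 1 replicate 1, and 2 without replicate 2 or replicate 3 of that group, and total-count scaling gave 3 falls and 5 rises. Of the 37, 20 were late-only falls. The median fold change was -0.0031 at day 1 (0.02 under total-count scaling) and -0.40 at day 5. FANCD2, the central Fanconi protein, was at 73.6 to 77.9 CPM in DMSO and 79.6 to 84.2 CPM with olaparib at day 1, and at 63.3 to 66.5 and 42.5 to 47.6 CPM at day 5. Its log2 fold change was 0.12 ± 0.051, which did not pass (adjusted p = 0.152), and then -0.55 ± 0.056.

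BRIP1, a helicase that works with BRCA1, was reversed, with 24.6 to 25.9 CPM in DMSO and 27.3 to 28.4 CPM with olaparib at day 1 and 29.3 to 31.7 and 19.9 to 21.4 CPM at day 5. BLM, the Bloom helicase, had an interaction of -0.73 ± 0.079 and EME1, a subunit of a structure-specific nuclease, one of -0.72 ± 0.070. EME1 and NEK2 passed as higher at day 1, and so as reversed, under total-count scaling. BRCA1 and BRCA2, named after their values were seen, had 0.05 ± 0.030 and 0.0077 ± 0.030 at day 1 (adjusted p = 0.260 and 0.913) and -0.50 ± 0.031 and -0.57 ± 0.032 at day 5.

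The ATF4 and amino acid genes went from a few rises to a nearly general fall. At day 1, 15 of 45 were higher and 5 lower (8 lower without DMSO day 1 replicate 2), and at day 5, 2 were higher and 42 lower. In the interaction 43 passed downward and 1 upward, at a median of -0.51, against a median of 0.0011 over all genes tested. Of the 45, 24 were late-only falls and 13 reversed from higher to lower. The median fold change was 0.02 at day 1 and -0.48 at day 5.

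ASNS, asparagine synthetase, was at 279, 267 and 278 CPM in DMSO and 307, 308 and 309 CPM with olaparib at day 1. The day 5 levels were 313, 322 and 315 CPM in DMSO and 135, 131 and 131 CPM with olaparib. The olaparib libraries were above DMSO at day 1 and far below DMSO at day 5, a change in log2 fold from 0.17 ± 0.023 to -1.26 ± 0.024. The interaction was -1.43 ± 0.033 (adjusted p = 5.99e-28), and ASNS was reversed in each of the 12 fits that left out 1 library.

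CHAC1, an enzyme that breaks down glutathione and is induced by ATF4, was at 7.25, 7.05 and 7.30 CPM in DMSO and 8.31, 8.48 and 9.17 CPM with olaparib at day 1. At day 5 it was at 8.84, 9.75 and 9.16 CPM in DMSO and 1.85, 2.38 and 1.95 CPM with olaparib. Its day 1 rise of 0.27 ± 0.085 passed narrowly (adjusted p = 0.0276), and 8 of the 12 fits that left out 1 library kept it reversed. The day 5 fold change was -2.16 ± 0.10 and the interaction -2.43 ± 0.13 (adjusted p = 5.41e-17). SLC1A4, a neutral amino acid transporter, had 0.14 ± 0.045 and -1.23 ± 0.051 and stayed reversed in 7 of the 12 fits.

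SLC7A11, the cystine-glutamate exchanger that feeds glutathione synthesis, was at 112, 106 and 111 CPM in DMSO and 122, 116 and 110 CPM with olaparib at day 1. By day 5 it was at 105, 114 and 103 CPM in DMSO and 37.7, 37.7 and 36.7 CPM with olaparib. It was late only, with an interaction of -1.60 ± 0.056 (adjusted p = 1.51e-17). BCAT1, the cytosolic branched-chain amino acid transaminase whose promoter holds the ATF4 element, was at 34.2 to 38.8 CPM in DMSO and 34.2 to 38.2 CPM with olaparib at day 1. After 5 days it was at 37.2 to 41.5 and 13.3 to 14.9 CPM, with an interaction of -1.45 ± 0.087 (adjusted p = 1.01e-11).

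Picked after their values were seen, PSAT1, an enzyme of serine synthesis, had 0.0074 ± 0.022 at day 1 and -1.11 ± 0.023 at day 5. ATF4 mRNA itself had 0.03 ± 0.020 (adjusted p = 0.403) and then -0.69 ± 0.020. DDIT3 (CHOP), a partner and target of ATF4, was late only at -0.32 ± 0.057, and TRIB3, a pseudokinase target, at -0.84 ± 0.037.

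Androgen-regulated genes went the other way. Of 99, 32 were lower and 7 higher with olaparib at day 1, and 17 were lower and 62 higher at day 5. In the interaction 65 passed upward and 9 downward, at a median of 0.26. By class, 38 were late-only rises, 16 fell and then rose, 11 were sustained falls and 6 sustained rises. The day 1 counts depended on the scaling and on a library. Under total-count scaling, 18 were lower and 12 higher at day 1, 58 passed upward and 14 downward in the interaction, and 8 were reversed. Without DMSO day 1 replicate 1, 21 were lower at day 1 and 10 were reversed. The day 1 rises numbered 2 without DMSO day 1 replicate 2 and 4 without olaparib 1 µM day 1 replicate 1.

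KLK3 (ENSG00000142515), which encodes PSA, was at 1024, 1074 and 1101 CPM in DMSO and 957, 948 and 989 CPM with olaparib at day 1. The day 5 levels were 1248, 1255 and 1232 CPM in DMSO and 1486, 1498 and 1499 CPM with olaparib. The groups were apart at both days and in opposite order, with log2 fold changes of -0.14 ± 0.022 (adjusted p = 4.22e-05) and 0.26 ± 0.021 (adjusted p = 3.04e-10). The interaction was 0.41 ± 0.030 (adjusted p = 1.83e-10), and KLK3 was reversed in each of the 12 fits that left out 1 library and under total-count scaling. FKBP5, a chaperone of steroid receptors, was at 581 to 601 CPM in DMSO and 555 to 578 CPM with olaparib at day 1, and at 684 to 705 and 968 to 970 CPM at day 5. Its day 1 fold change was small, -0.06 ± 0.018, and it counted as late only under total-count scaling.

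TMPRSS2, a luminal serine protease, was at 83.0, 80.3 and 85.8 CPM in DMSO and 90.2, 85.3 and 86.0 CPM with olaparib at day 1. At day 5 it was at 116, 116 and 119 CPM in DMSO and 234, 234 and 235 CPM with olaparib. The day 1 groups overlapped, and the day 5 fold change was 1.01 ± 0.026, with an interaction of 0.94 ± 0.038 (adjusted p = 1.11e-20). TMPRSS2 counted as sustained under total-count scaling. KLK2, a kallikrein next to KLK3, had -0.08 ± 0.029 and then 0.52 ± 0.028.

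The largest interactions in the list were of MAF and NDRG1. MAF, a leucine zipper transcription factor, was at 30.9 to 34.7 CPM in DMSO and 35.3 to 37.1 CPM with olaparib at day 1, and at 29.5 to 31.9 and 113 to 120 CPM at day 5. Its interaction was 1.77 ± 0.055 (adjusted p = 3.46e-23). NDRG1, a stress gene that also responds to hypoxia, was at 91.2 to 99.2 and 105 to 108 CPM at day 1 and at 104 to 111 and 392 to 420 CPM at day 5, with an interaction of 1.75 ± 0.050. TARP, a transcript of the T cell receptor gamma locus that prostate cells make under androgen, had an interaction of 1.27 ± 0.071.

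Clustered histone genes followed a similar order. Of 50 tested, 19 were lower and 0 higher at day 1, 19 were higher and 4 lower at day 5, and 24 passed upward and 2 downward in the interaction. The median fold change was -0.22 at day 1 and 0.27 at day 5. By class, 9 fell and then rose, 9 were late-only rises and 6 early-only falls. The libraries were made by mRNA capture, which takes up few histone transcripts without a poly(A) tail, and near-identical copies share reads, so single members are uncertain.

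H2BC21 was the best measured of them, at 115, 112 and 113 CPM in DMSO and 95.8, 101 and 104 CPM with olaparib at day 1. By day 5 it was at 138, 133 and 135 CPM in DMSO and 274, 272 and 269 CPM with olaparib. The log2 fold change turned from -0.18 ± 0.027 to 1.01 ± 0.026, with an interaction of 1.19 ± 0.038 (adjusted p = 1.07e-23). H2BC7 turned from -0.51 ± 0.15 to 0.70 ± 0.14. H2BC18 was late only, with an interaction of 1.15 ± 0.18.

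**Figure D3:**
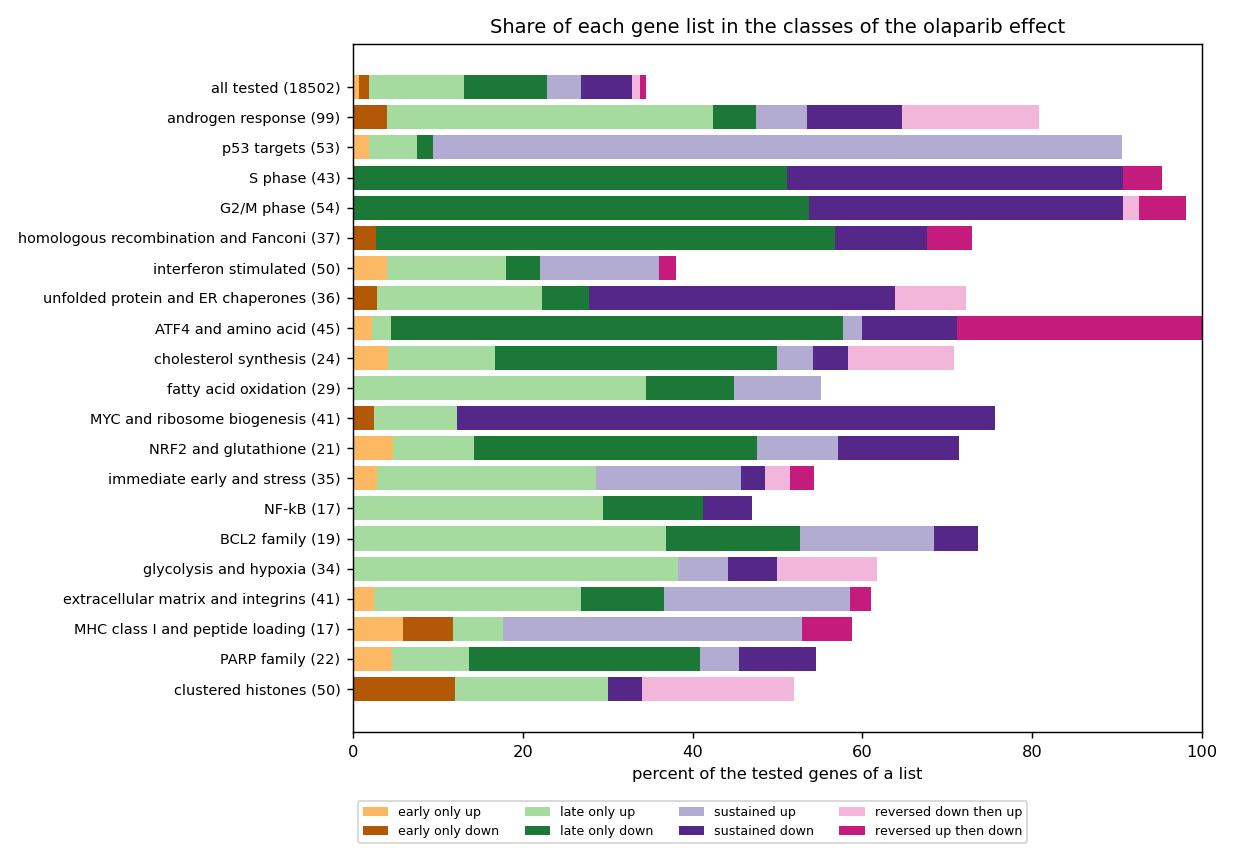
Bars give the percent of each list's tested genes (number in parentheses) in each class and direction, beside the same over all 18502 genes tested. S phase, G2/M and ATF4 genes are mostly late-only or sustained falls, p53 targets mostly sustained rises, and androgen response and histone genes hold the largest shares that fell and then rose.

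Beside CHAC1, the reversed genes with the largest interactions in each direction, clustered histones left out and at least 100 counts in a group required, included ADAMTS1 and NIBAN1. ADAMTS1, a secreted metalloprotease (chr21:26835755-26845409, minus strand), was at 312, 301 and 318 CPM in DMSO and 301, 284 and 279 CPM with olaparib at day 1. After 5 days it was at 300, 296 and 293 CPM in DMSO and 596, 600 and 619 CPM with olaparib, with log2 fold changes of -0.11 ± 0.031 and 1.03 ± 0.031. The day 1 groups overlapped, and ADAMTS1 was late only under total-count scaling and reversed in 8 of the 12 fits that left out 1 library. RHOBTB1, an atypical small GTPase, went from -0.36 ± 0.12 to 0.86 ± 0.11, and was also late only under total-count scaling. CCDC141, a coiled-coil protein, went from -0.25 ± 0.073 to 0.72 ± 0.063, and the lncRNA LINC01647 from -0.58 ± 0.18 to 0.50 ± 0.17.

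Among genes that rose and then fell, NIBAN1, a stress-response gene, was at 27.4 to 30.7 CPM in DMSO and 30.5 to 33.6 CPM with olaparib at day 1, and at 30.4 to 32.7 and 9.13 to 9.71 CPM at day 5. Its day 1 change was small (0.14 ± 0.045, groups overlapping) and its day 5 change large (-1.74 ± 0.054). The lncRNA LINC01133 was at 2.90, 3.18 and 2.65 CPM in DMSO and 4.77, 4.31 and 5.18 CPM with olaparib at day 1. The day 5 levels were 2.86, 4.14 and 3.17 CPM in DMSO and 1.64, 1.30 and 1.28 CPM with olaparib. Its groups were apart at both days, with an interaction of -1.97 ± 0.19 (adjusted p = 2.55e-10). ACKR3, an atypical chemokine receptor, went from 0.38 ± 0.081 to -1.10 ± 0.092. Of 17 reversed genes named here, 6 (ACKR3, ASNS, H2BC21, KLK3, LINC01133 and UBE2C) were reversed in every fit that left out 1 library.

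Early-only genes were few. DHRS2, a mitochondrial dehydrogenase, was at 11.2, 11.1 and 10.9 CPM in DMSO and 7.03, 6.34 and 7.34 CPM with olaparib at day 1. At day 5 it was at 10.6, 11.5 and 10.0 CPM in DMSO and 10.5, 10.8 and 10.2 CPM with olaparib. The groups were apart at day 1 and overlapped at day 5, with log2 fold changes of -0.68 ± 0.075 and -0.03 ± 0.072 and an interaction of 0.65 ± 0.10 (adjusted p = 5.16e-06). In the panel its fold change was -0.07 ± 0.084, which did not pass (adjusted p = 0.598).

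MFSD4A, a membrane transporter, was at 1.85, 1.98 and 1.43 CPM in DMSO and 2.64, 2.63 and 2.80 CPM with olaparib at day 1. By day 5 it was at 1.90, 2.19 and 1.60 CPM in DMSO and 1.5, 1.44 and 1.73 CPM with olaparib. Its interaction was -0.90 ± 0.22 (adjusted p = 0.00124), but in the panel it fell by 0.70 ± 0.19 (adjusted p = 0.00424), where the time course had -0.28 ± 0.16 at day 5. DLG2, a synaptic scaffold protein, was lower at day 1 (-0.33 ± 0.079) and had 0.12 ± 0.075 at day 5, while in the panel it was lower by day 5 (-0.34 ± 0.10, adjusted p = 0.00878).

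Other early-only genes were NT5C1A, a cytosolic nucleotidase, with an interaction of -0.81 ± 0.19, and ASS1P13, a pseudogene of argininosuccinate synthase that shares reads with its parent, with -0.64 ± 0.18. The day 5 groups of NT5C1A were apart, though its fold change of -0.27 ± 0.13 did not pass (adjusted p = 0.0815). Between the days NT5C1A rose in DMSO by 0.88 ± 0.13 on the log2 scale, while its olaparib step of 0.07 ± 0.13 did not pass (adjusted p = 0.692). ZNF542P, a zinc finger pseudogene, had an interaction of 0.57 ± 0.19 and was early only in 3 of the 12 fits that left out 1 library. ST3GAL1-DT, a divergent transcript, had 0.39 ± 0.11 and was early only in 7 of them. Under total-count scaling both passed in the interaction alone.

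THBS1, thrombospondin 1, was among the late-only rises, at 19.7, 19.0 and 18.3 CPM in DMSO and 19.7, 20.1 and 18.1 CPM with olaparib at day 1. After 5 days it was at 15.1, 15.3 and 15.6 CPM in DMSO and 62.5, 64.6 and 64.0 CPM with olaparib. The groups overlapped at day 1, and the interaction was 2.03 ± 0.065 (adjusted p = 1.07e-23). CYP3A5, a drug-metabolizing cytochrome P450, was at 0.455, 0.425 and 0.520 CPM in DMSO and 0.641, 0.675 and 0.413 CPM with olaparib at day 1. The day 5 levels were 0.375, 0.650 and 0.232 CPM in DMSO and 3.46, 2.79 and 3.43 CPM with olaparib. Its interaction, 2.65 ± 0.34 (adjusted p = 7.19e-08), was the largest in its class among genes with at least 100 counts in a group. CYP3A5 reached 100 counts only with olaparib at day 5, where it was high, so this rank is a description.

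SERPIND1 (heparin cofactor II) had an interaction of 2.48 ± 0.24 and GPNMB, a lysosomal glycoprotein, one of 2.07 ± 0.17. Among late-only falls outside the ATF4 list, CA8, a carbonic anhydrase-related protein, was at 7.19 to 8.01 CPM in DMSO and 7.76 to 8.59 CPM with olaparib at day 1, and at 7.10 to 8.18 and 2.46 to 2.63 CPM at day 5. RNF152, a lysosomal ubiquitin ligase, had an interaction of -1.54 ± 0.19.

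Of 41 ribosome biogenesis and MYC-linked genes, 31 were lower and 0 higher at day 1, 27 were lower and 4 higher at day 5 (2 higher without DMSO day 5 replicate 1, without olaparib 1 µM day 5 replicate 3 or under total-count scaling), and 26 were sustained falls, with medians of -0.12 and -0.11. In the panel 13 were lower and 5 higher, with a median of -0.0065. In the interaction 6 passed upward and 5 downward, near the shares over all genes (15.6% and 14.2%), against 4 and 11 under total-count scaling. UTP20, a processing factor of the small ribosomal subunit, had -0.23 ± 0.028 and -0.53 ± 0.029, and TCOF1, a nucleolar protein, -0.09 ± 0.027 and -0.51 ± 0.028. TCOF1 was late only under total-count scaling and sustained in 8 of the 12 fits that left out 1 library. MYC itself was late only, at 134 to 140 CPM in DMSO and 129 to 132 CPM with olaparib at day 1 and at 151 to 153 and 179 to 187 CPM at day 5, with an interaction of 0.33 ± 0.036 (adjusted p = 3.02e-09).

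In the PARP family, which holds the drug's targets, 2 of 22 were higher and 2 lower at day 1, 6 higher and 9 lower at day 5, and 3 passed upward and 9 downward in the interaction. Over all genes, 23.4% were higher and 22.9% lower at day 5, and 15.6% passed upward and 14.2% downward in the interaction, so the family's rises were near those shares. Without DMSO day 1 replicate 1, and under total-count scaling, 3 were higher and 0 lower at day 1. At that day 1 was higher without DMSO day 1 replicate 3, 1 was higher and 1 lower without olaparib 1 µM day 1 replicate 2, and 1 was lower without olaparib 1 µM day 1 replicate 1. Without DMSO day 5 replicate 1, 7 were higher and 6 lower at day 5. PARP1 was at 660 to 684 CPM in DMSO and 633 to 647 CPM with olaparib at day 1, and at 615 to 621 and 556 to 559 CPM at day 5, which gives -0.07 ± 0.017 and -0.15 ± 0.017. PARP2 went from -0.12 ± 0.035 to -0.42 ± 0.038. Under total-count scaling both were late only. PARP14, a mono-ADP-ribosyltransferase of interferon responses, was early only, at 7.93 to 8.73 CPM in DMSO and 11.3 to 11.7 CPM with olaparib at day 1 and at 9.78 to 10.3 and 9.10 to 10.7 CPM at day 5. HPF1, the cofactor that directs PARP1 and PARP2 to serine, was a late-only fall with an interaction of -0.34 ± 0.071, PARP8 one with -0.42 ± 0.10, and TIPARP (PARP7) a late-only rise with 0.37 ± 0.082.

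Glycolysis and hypoxia genes rose late. Of 34, 2 were higher and 8 lower at day 1, 21 higher and 2 lower at day 5, and 20 passed upward and 0 downward in the interaction. Without DMSO day 1 replicate 3 or under total-count scaling, 4 were higher and 5 lower at day 1. Without olaparib 1 µM day 1 replicate 1, 2 were higher and 5 lower, and without DMSO day 1 replicate 1 or olaparib 1 µM day 1 replicate 3, 1 was higher. ALDOC, an aldolase, was at 29.4 to 30.2 CPM in DMSO and 30.8 to 31.8 CPM with olaparib at day 1, and at 30.1 to 30.4 and 52.4 to 57.6 CPM at day 5. CA12, a carbonic anhydrase of the cell surface, had an interaction of 0.58 ± 0.080 and ANKRD37, a target of hypoxia-inducible factor, one of 0.57 ± 0.13.

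Immediate early and stress genes, whose transcripts respond to growth factors within minutes, were higher for 8 and lower for 2 of 35 at day 1, and higher for 19 and lower for 4 at day 5. In the interaction 17 passed upward and 2 downward. Over all genes, 6.30% were higher and 9.52% lower at day 1, and 23.4% higher and 22.9% lower at day 5. FOSL2, an AP-1 subunit, was a sustained rise, at 13.6 to 14.3 CPM in DMSO and 15.9 to 17.1 CPM with olaparib at day 1, and at 12.1 to 13.2 and 27.1 to 28.5 CPM at day 5. ID2, an inhibitor of helix-loop-helix factors, was at 26.5 to 27.6 and 25.3 to 27.1 CPM at day 1, and at 14.8 to 16.4 and 25.9 to 28.2 CPM at day 5, and between the days DMSO fell by 0.77 ± 0.052 on the log2 scale while the olaparib step of 0.04 ± 0.048 did not pass (adjusted p = 0.486). BTG1, an antiproliferative gene, had an interaction of 0.79 ± 0.040. FOS had 0.72 ± 0.26 and was late only in 4 of the 12 fits that left out 1 library.

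Interferon-stimulated genes were higher for 10 and lower for 0 of 50 at day 1, and higher for 23 and lower for 4 at day 5, with 9 upward and 5 downward interactions, near the 15.6% and 14.2% over all genes. GBP2, IFIT2 and IFIT5, antiviral effectors, had interactions of 1.20 ± 0.44, 0.84 ± 0.31 and -0.64 ± 0.21, and their classes held in 5, 6 and 8 of the 12 fits that left out 1 library. IFIT2 did not pass in the interaction under total-count scaling. IFI35 was early only, at 1.25 to 1.95 CPM in DMSO and 2.10 to 2.36 CPM with olaparib at day 1 and at 1.74 to 2.41 and 1.44 to 1.90 CPM at day 5. Its class held in 8 of the 12 fits that left out 1 library. Matrix and integrin genes were higher for 11 (7 without DMSO day 1 replicate 1) and lower for 0 of 41 at day 1 and higher for 22 and lower for 5 at day 5, and 14 passed upward and 6 downward in the interaction, the latter near the 14.2% over all genes. LAMB3, a laminin chain of basement membranes, had 1.52 ± 0.31, COL4A6, a collagen IV chain, 0.90 ± 0.26, and LAMA1, another laminin chain, 0.96 ± 0.067.

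An interaction can arise from a change in the DMSO cultures, in the olaparib cultures or in both, and the 2 steps from day 1 to day 5 were set side by side. They use the same 12 libraries, so this describes the interaction and is no further test of it. Between the days, 4536 genes changed in DMSO (24.5%) and 9421 with olaparib (50.9%). Among the 2883 genes with an upward interaction, 1731 (60.0%) changed with olaparib only, 246 (8.53%) in DMSO only, 825 in both and 81 in neither. Among the 2627 with a downward interaction, 1523 (58.0%) changed with olaparib only, 168 in DMSO only, 867 in both and 69 in neither. Steps in DMSO alone made up 23.9% of the 209 early-only genes that had fallen and 20.1% of the 134 that had risen, beside 5.57% of late-only falls and 6.96% of late-only rises.

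The lists differed in this respect too. G2/M genes fell between the days for 50 of 54 in DMSO and for 53 of 54 with olaparib, with medians of -0.18 and -0.69. S phase genes fell for 25 of 43 in DMSO and for 42 with olaparib, at medians of -0.10 and -0.48. Androgen-regulated genes rose for 55 of 99 in DMSO and for 74 with olaparib, at medians of 0.12 and 0.41. ATF4 genes rose for 21 and fell for 2 of 45 in DMSO, and rose for 2 and fell for 40 with olaparib. Immediate early genes fell for 21 and rose for 5 of 35 in DMSO, and fell for 12 and rose for 11 with olaparib, at medians of -0.28 and -0.18.

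**Figure D4:**
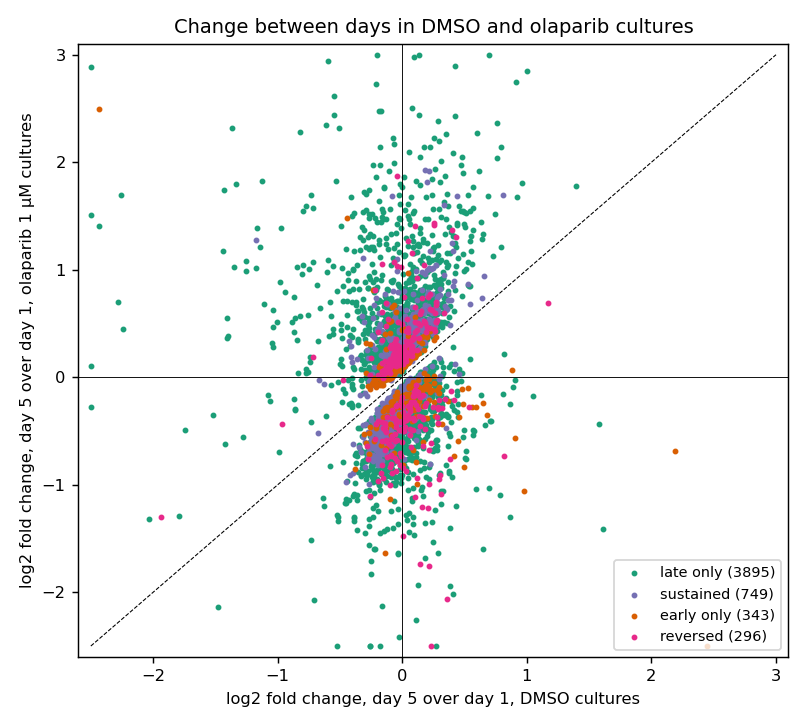
Points are the genes of the 4 classes that passed in the interaction, with the log2 change from day 1 to day 5 in DMSO on the horizontal and in olaparib (1 µM) cultures on the vertical axis, and with genes beyond an axis drawn at its edge. The cloud is taller than it is wide, with medians of 0.33 with olaparib and 0.0060 in DMSO for late-only genes that rose, and of -0.35 and -0.030 for those that fell.

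The panel shares no library with the time course, so it gives the day 5 effect in samples that did not define the classes. In the panel, 6638 of 18625 genes passed (35.6%), 3655 higher (19.6%) and 2983 lower (16.0%) with olaparib. Of the genes tested in both experiments, 20.2% were higher and 16.5% lower. Late-only genes that rose were higher in the panel for 1577 of 2074 (76.0%) and lower for 1. Late-only genes that fell were lower for 1268 of 1809 (70.1%) and higher for 2. Sustained rises were higher for 598 of 723 and sustained falls lower for 759 of 1119.

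Reversed genes showed their day 5 direction there as well. Those that fell and then rose were higher in the panel for 116 of 161 (72.0%) and lower for 0, and those that rose and then fell were lower for 88 of 135 (65.2%) and higher for 0. Early-only genes that had fallen at day 1 were higher for 53 (25.4%) and lower for 5 (2.39%) of 209. Those that had risen were higher for 11 (8.27%) and lower for 9 (6.77%) of 133. Over all genes tested in both experiments, 20.2% were higher and 16.5% lower, so the 53 were not far above that share. By list, the panel had 46 p53 targets higher and 1 lower, 39 S phase genes lower and 0 higher, 50 G2/M genes lower and 2 higher, and 24 HR and Fanconi genes lower and 0 higher. It had 39 ATF4 genes lower and 0 higher, 56 androgen-regulated genes higher and 17 lower, and 17 histone genes higher and 4 lower. Glycolysis genes were higher for 18 and lower for 0, immediate early genes for 18 and 1, interferon genes for 21 and 4, matrix genes for 20 and 4, and PARP family genes for 5 and 7. The panel has no day 1 group, so the day 1 effect was seen in 1 experiment only. Among the named genes, DNAJB9 and ERN1 rose late in the time course (0.32 ± 0.059 and 0.31 ± 0.039 at day 5) and had -0.09 ± 0.061 and -0.01 ± 0.048 in the panel, where neither passed.

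**Figure D5:**
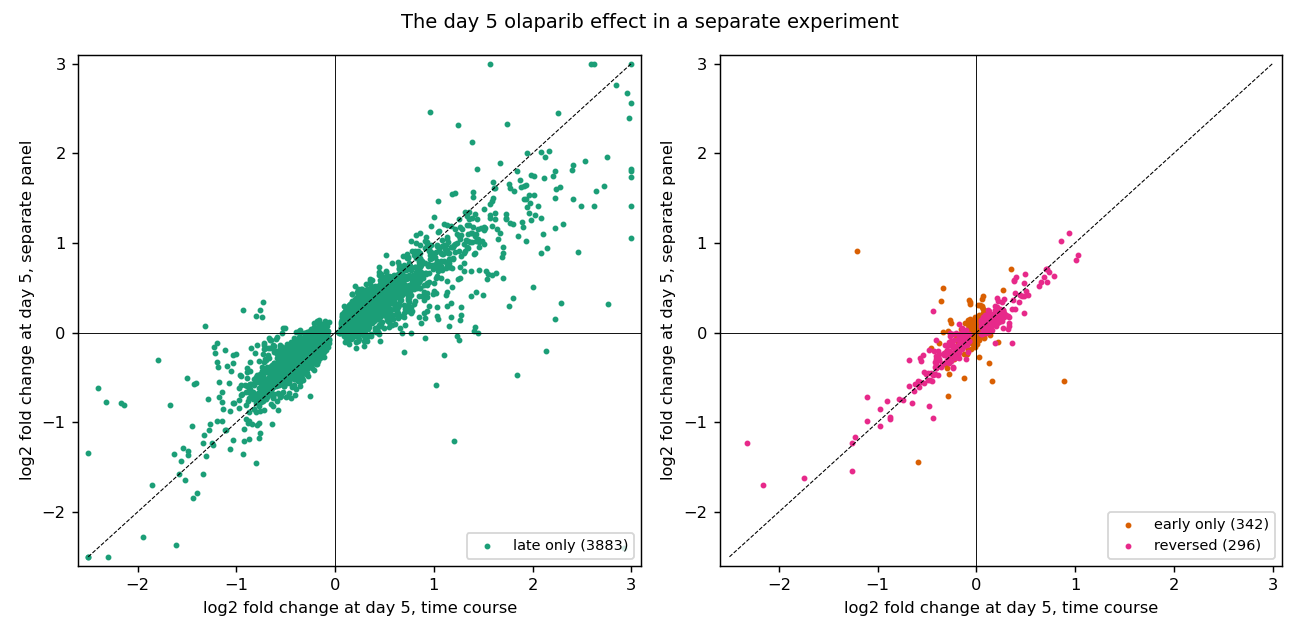
Points are genes, with the log2 fold change of olaparib (1 µM) over DMSO at day 5 in the time course on the horizontal and in the separate panel on the vertical axis, and with genes beyond an axis drawn at its edge. Late-only genes (left) keep their direction, with 76.0% of rises and 70.1% of falls passing the same way, and reversed genes (right) lie along the same diagonal, while most early-only genes lie near 0 on the horizontal axis.

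The values at olaparib 5 µM are given side by side, since both doses share the DMSO libraries. At day 1, 8333 genes passed at 5 µM (45.0%), 21.6% of those tested higher and 23.4% lower. At day 5 it was 12627 genes (68.2%), with 34.4% higher and 33.9% lower, and in the interaction 10156 (54.9%), with 27.2% upward and 27.7% downward. All 53 p53 targets were higher at day 1, and 51 were higher at day 5, with medians of 1.39 and 1.13. Of the G2/M genes, 53 of 54 were lower at day 1 and all 54 at day 5, with medians of -0.66 and -2.68. CDC45 had 0.02 at day 1 and -2.88 at day 5. Of the ATF4 genes, 26 of 45 were lower and 10 higher at day 1, and 40 lower and 5 higher at day 5. Of the androgen-regulated genes, 50 of 99 were lower and 20 higher at day 1, and 32 lower and 62 higher at day 5. KLK3 had -0.29 and then 0.59, UBE2C had -0.74 and -2.92 and so was lower at both days, and CHAC1 had -0.05 and -2.91.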

How the data were processed

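RNA from C4-2B cells was sequenced by stranded mRNA-seq. Per the labels and the study's methods, the authors trimmed reads with Trim Galore, aligned them with STAR to GRCh38 and quantified genes with Salmon in nf-core/rnaseq. The deposited values are estimated counts per gene in whole numbers, not normalized, and whether Salmon used strand is not given in the sources used here. Gene names and coordinates were taken from a GENCODE annotation of GRCh38 other than the authors' release, and promoters from RefSeq (GRCh38.p14).

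Groups came from the labels. Genes were filtered by group with filterByExpr, scaled by TMM and tested by edgeR 4.0.16 (R 4.3.3) with robust quasi-likelihood fits over the 18 time-course libraries, without covariates, and 18502 genes were adjusted together. The 21 panel libraries of 7 treatments were fitted separately (18625 genes). CPM are TMM-scaled, errors on log2 values are SE, and n is 3 libraries per group. The scripts were tested on simulated data. Replicate numbers did not pair the libraries (correlations of deviations between -0.13 and 0.21). Depth was alike between libraries, so precision differed mainly by a gene's level.

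Named genes were, per class and direction, the 4 with the largest interaction (for sustained genes, the largest smaller fold change of the 2 days) among genes with a symbol and at least 100 counts in a group, leaving out small RNA families and clustered histones. To these were added up to 4 members per list with the largest interaction among those that passed, and a fixed set of genes (KLK3, KLK2, TMPRSS2, FKBP5, CDKN1A, MDM2, PARP1, PARP2, CCNB1, MKI67, MYC, CEL and CHAC1). Others are said to be picked afterwards. Some genes that the rule names are not reported here. The contrast, the members and the gene lists were chosen with earlier results of these data known. Some genes are in several lists, such as SLC7A11 in the ATF4 and NRF2 lists, so list counts are not independent of each other. Alternatives were other scalings, filters, thresholds, DESeq2 1.42.0, a replicate block and leaving out each library.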

Additional observations from a re-analysis of the deposited data

Results flagged for a closer look

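The olaparib effect differed between days 1 and 5, by the test of that difference, for 5510 genes. The reversed genes picked by the naming rule passed at both days in opposite directions in the fit reported above, and RHOBTB1, ADAMTS1 and FKBP5 were late only under total-count scaling.

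Among genes that fell and then rose, the interaction (log2) was 1.22 for RHOBTB1, 1.14 for ADAMTS1, 1.08 for LINC01647, 0.96 for CCDC141, 1.22 for H2BC7, 1.19 for H2BC21, 0.55 for FKBP5 and 0.41 for KLK3. Among genes that rose and then fell, it was -2.43 for CHAC1, -1.97 for LINC01133, -1.88 for NIBAN1, -1.49 for ACKR3, -1.43 for ASNS, -1.37 for SLC1A4, -0.71 for UBE2C, -0.71 for BRIP1 and -0.43 for TAP2, a peptide transporter of antigen presentation. Of these, 11 were not reversed in every fit leaving out 1 library, and LINC01647 lost its class also without DMSO day 5 replicate 2 and without olaparib 1 µM day 5 replicate 1. In those fits, the highest day 1 adjusted p (edgeR) ranged from 0.097 for H2BC7 to 0.239 for NIBAN1.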

How the results depend on the processing

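The numbers of interaction, day 1, day 5 and class calls stayed within 1.5 times the reported ones under RLE and total-count scaling, both other filters, DESeq2, the fit of only the libraries compared and the replicate block. The members changed more than the counts under total-count scaling, where 190 of the 343 early-only, 197 of the 296 reversed, 1435 of the 1847 sustained and 3250 of the 3895 late-only genes kept their class. DESeq2 gave 5084 interaction, 2843 day 1 and 7822 day 5 calls. At an adjusted p under 0.01 there were 1651 day 1 calls, 160 early-only, 1073 sustained and 105 reversed genes. Requiring a log2 fold change of 0.5 in either direction gave 1344 interaction, 281 day 1 and 2210 day 5 calls and 42 early-only (37 of them reported as such), 1041 late-only (921 reported as such), 152 sustained and 5 reversed genes; both are stricter by construction. Leaving out 1 library gave 5026 to 5324 interaction, 1932 to 2873 day 1 and 7737 to 8662 day 5 calls, and 222 to 345 early-only, 3583 to 4154 late-only, 1289 to 1745 sustained and 189 to 262 reversed genes. The share of late-only genes called the same way in the panel was 73.3%, and 74.4% to 76.3% without 1 library. Without DMSO day 1 replicate 1 there were 1932 day 1 calls, 222 early-only and 189 reversed genes, and without olaparib 1 µM day 1 replicate 1 or 3 there were 192 and 189 reversed genes. The cause was not tested.

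The replicate block gave 5338 interaction, 2754 day 1 and 8398 day 5 calls, and changed the interaction call of none of the 114 named genes; the numbers did not pair the samples. Of the named genes, 35 lost the interaction call at a fold change of at least 0.5, 13 at an adjusted p under 0.01, 6 in DESeq2, 5 without a filter, 4 with only the libraries compared and 2 under total-count scaling, and none changed sign. Under total-count scaling the median interaction over all genes moved to -0.047, and the interaction medians of the ER chaperone, fatty acid oxidation, MYC and matrix lists changed sign. Low counts limit genes such as PTCHD4.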

Other observations

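Over all genes, 23.4% were higher and 22.9% lower with olaparib at day 5, and the counts of the further lists are read beside these shares. Of 24 cholesterol synthesis genes, 7 were higher and 13 lower with olaparib at day 5, and 7 passed upward and 10 downward in the interaction. FDPS, which makes farnesyl pyrophosphate, was at 104 to 106 CPM in DMSO and 101 to 108 CPM with olaparib at day 1 and at 119 and 91.8 to 95.1 CPM at day 5. INSIG1, which restrains sterol synthesis, went from -0.17 ± 0.023 to -0.46 ± 0.023, and TM7SF2, a sterol reductase, from 0.24 ± 0.030 to 0.71 ± 0.029. Of 29 fatty acid oxidation genes, 15 were higher and 4 lower at day 5, and 11 passed upward and 3 downward in the interaction, with ACAA1, a peroxisomal thiolase, at 0.40 ± 0.039. Of 36 ER chaperone genes, 17 were lower and 0 higher at day 1 and 18 lower and 11 higher at day 5. The day 1 falls numbered 11 without DMSO day 1 replicate 1 and, with 1 rise, 11 under total-count scaling. XBP1, a transcription factor of the unfolded protein response, was a late-only fall at -0.34 ± 0.024.

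Of 21 NRF2 and glutathione genes, 10 were lower and 5 higher at day 5, the rises near the share over all genes. NQO1, a quinone reductase, was a late-only fall with an interaction of -0.50 ± 0.033, while FTL, the ferritin light chain, was at 112 to 125 CPM in DMSO and 133 to 137 CPM with olaparib at day 1 and at 113 to 118 and 203 to 209 CPM at day 5. Of 19 BCL2 family genes, 10 were higher and 4 lower at day 5, the falls near the share over all genes. BCL2, which blocks cell death, had an interaction of -0.98 ± 0.16, and BMF, which promotes it, one of 0.50 ± 0.13. Of 17 NF-kB genes, 6 were higher and 3 lower at day 5, few more or fewer than those shares give, with NFKB2, a subunit precursor, at an interaction of 0.56 ± 0.051, late only here and sustained under total-count scaling. CD83, another member, fell at day 5 by 0.60 ± 0.17 and had -0.07 ± 0.16 in the panel, which did not pass. Of 17 MHC class I genes, 10 were higher and 1 lower at day 5. B2M, the light chain of MHC class I, was at 148 to 152 CPM in DMSO and 151 to 153 CPM with olaparib at day 1 and at 166 to 176 and 268 to 278 CPM at day 5, with an interaction of 0.67 ± 0.040 (edgeR, adjusted p = 2.75e-15). In the panel, the lists had 5 higher and 8 lower (cholesterol), 15 and 2 (fatty acid oxidation), 8 and 7 (ER chaperones), 5 and 8 (NRF2), 11 and 3 (BCL2 family), 7 and 2 (NF-kB) and 9 and 1 (MHC class I).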
